A study of Mus musculus with 9 samples.

Results

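HS3A8-low MEPs were compared with mock-sorted total MEPs to ask which transcripts are enriched or depleted when the cells carrying least of a heparan sulfate (HS) epitope are taken from the whole population. Megakaryocyte-erythroid progenitors (MEPs) are bone marrow cells that give rise to red cells and to megakaryocytes, the source of platelets. All cells came from C57Bl/6 mouse bone marrow and passed the same gate, Lin-ckit+CD34-FcγRII/IIIlo, so that both groups share every marker except the antibody stain. HS3A8 is a single-chain antibody (scFv) that binds an HS epitope, and HS3A8-low MEPs are the 50% of MEPs that bound it least. MPB49 is an scFv with no known epitope, so the MPB49 control libraries stand for total MEPs, which still include the cells that an HS3A8-low sort would collect. Each group held 3 libraries, each made from 25000 sorted cells, and the study describes the HS3A8-low replicates as separate mice. For the control libraries the animals are not given in the sources used here, so p-values measure the spread between these samples, which may be technical. Of 35275 gene identifiers in the count table, 18107 had at least 1 count in the 6 libraries and 11878 passed the count filter and were tested. The marker genes of the gate fit it only in part, since Kit transcript was present in all 6 libraries (384 to 709 CPM, the counts of a gene per 1000000 counts of the scaled library) while Cd34 transcript, whose protein the gate excludes, was also detected in all of them (15.4 to 74.1 CPM).

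HS is a sulfated sugar chain that is built on core proteins such as the glypicans and syndecans, polymerized by the EXT enzymes and then modified by sulfotransferases. The chains bind growth factors and cytokines at the cell surface. GATA1 and KLF1 drive the erythroid program of an MEP, whereas FLI1, RUNX1 and MEIS1 belong to the megakaryocyte program. A sorted fraction of 50% sets an arithmetic limit: if both fractions hold like amounts of RNA, a transcript found only in the HS3A8-low cells can be at most 2-fold above the total, whereas a transcript absent from them can be depleted without limit.

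Sequencing depth lay between 11781637 and 15850037 counts per library, and a floor of 3 counts corresponded to 0.189 to 0.255 CPM. A pair of libraries stood apart. MPB49 control replicate 1 lay at 84.1 on the first principal component (47.1% of the variance), while the other 5 libraries lay between -35.7 and 3.54. Its counts were shifted toward short transcripts: the rank correlation across 11827 annotated genes between transcript length and its deviation from the 6-library mean was -0.29, as a description of genes that share a library. HS3A8-low replicate 1 was shifted toward long transcripts, with a correlation of 0.35, and the remaining libraries lay between -0.13 and 0.20. HS3A8-low replicate 3 lay at -61.6 on the second component (26.9% of the variance), with the others between -3.97 and 28.8, and it carried granulocyte and monocyte transcripts that the other libraries held at low levels. Values without one of them are given beside the results that moved most.

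No gene passed the test across all genes. edgeR's quasi-likelihood test with Benjamini-Hochberg adjustment called 0 of 11878 genes at an adjusted p under 0.05 (percent called, 0%), and the smallest adjusted p was 0.488. At an unadjusted p under 0.05 it counted 673 genes (5.67% of those tested), of which 622 were higher and 51 lower in HS3A8-low. DESeq2 called 95 genes, 93 of them higher (0.695% of 13385 genes with an adjusted p). The limma voom fit with sample quality weights called 287, of which 267 were higher (2.25%). It gave control replicate 1 a weight of 0.138 and HS3A8-low replicate 2 a weight of 3.69. Both of these tools called 62 of the same genes higher and 2 lower.

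The fold changes were centred on 0 with a longer upper tail. The median log2 fold change over all genes was -0.0028, and 5898 genes were higher and 5980 lower in HS3A8-low. Changes beyond 2-fold were more often upward, with 718 genes above a log2 fold change of 1 and 146 below -1. All 3 HS3A8-low libraries lay above all 3 controls for 939 genes (7.91%) and below them for 584 (4.92%). When HS3A8-low replicate 3 and control replicate 1 were both left out, a choice made after they were seen to stand apart, edgeR called 26 genes, 25 higher and 1 lower, with 2 libraries a group. The 1 lower gene was Gpc4, and Tcf7, which had the smallest p of the 26, led the higher genes.

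**Figure D1:**
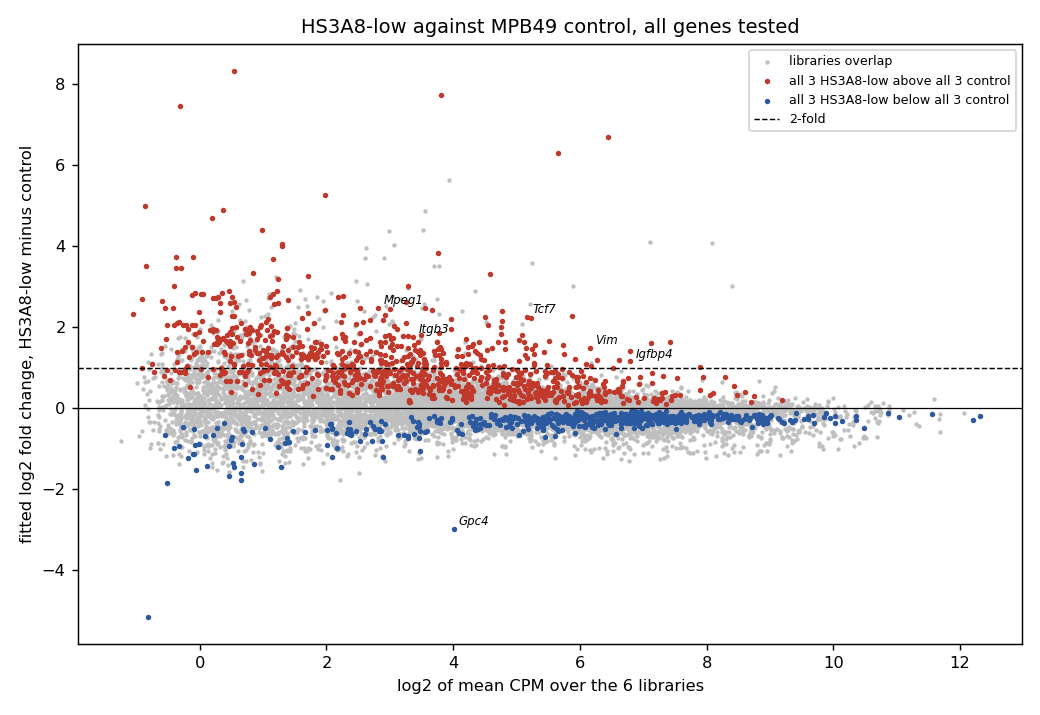
Fitted log2 fold change (HS3A8-low minus MPB49 control) against the log2 mean CPM of each of the 11878 genes tested. Red marks the 939 genes whose 3 HS3A8-low libraries all lie above the 3 controls, blue the 584 that lie below, and the dashed line marks 2-fold; Gpc4 sits alone below the blue band at its level, at -2.97.

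The gene with the smallest p of all was Gpc4, lower in HS3A8-low. Gpc4 (X:52053021-52165252, minus strand, GRCm38) encodes glypican 4, a core protein that carries HS chains at the cell surface. HS3A8-low libraries held 3.82, 5.15 and 1.86 CPM, and the controls 28.3, 32.2 and 25 CPM. The groups did not come near each other. Mean levels were 3.61 ± 1.65 against 28.5 ± 3.61 CPM (SD, n = 3), 7.91-fold lower, with a log2 fold change of -2.97 (SE 0.38). The test of edgeR gave an adjusted p of 0.488, DESeq2 an adjusted p of 1.22e-10 and voom one of 0.00871. The log2 fold change lay between -3.31 and -2.66 when any 1 library was left out.

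The stretch upstream of Gpc4 is printed with those of Itga2b, the αIIb integrin of the megakaryocyte lineage, and Cpa3, a mast cell carboxypeptidase named below, because they stand for the gene with the smallest p and for the platelet and mast cell lists. Each run is the 250 bases before the annotated start in RefSeq (GRCm38.p6), read 5′ to 3′ on the minus strand, with capitals for the GATA motif AGATAA and the ETS motifs AGGAAG and CGGAAG on either strand. The windows are chrX:52164924-52165173 for Gpc4, chr11:102469884-102470133 for Itga2b and chr3:20242182-20242431 for Cpa3. RefSeq and GENCODE place the starts of Gpc4 and Itga2b differently. The Gpc4 window and nearly all of the Itga2b window therefore lie inside the gene bounds of GENCODE, which are those given for Gpc4 above.
Gpc4: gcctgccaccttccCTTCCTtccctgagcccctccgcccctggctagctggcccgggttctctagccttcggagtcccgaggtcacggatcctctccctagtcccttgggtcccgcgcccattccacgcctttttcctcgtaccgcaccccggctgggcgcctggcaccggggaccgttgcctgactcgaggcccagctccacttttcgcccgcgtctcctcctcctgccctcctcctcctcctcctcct
Itga2b: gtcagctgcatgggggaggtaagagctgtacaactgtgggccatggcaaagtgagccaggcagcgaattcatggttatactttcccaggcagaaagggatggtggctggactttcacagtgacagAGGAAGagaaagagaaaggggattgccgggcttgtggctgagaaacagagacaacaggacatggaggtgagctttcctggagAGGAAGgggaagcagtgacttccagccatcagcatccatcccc
Cpa3: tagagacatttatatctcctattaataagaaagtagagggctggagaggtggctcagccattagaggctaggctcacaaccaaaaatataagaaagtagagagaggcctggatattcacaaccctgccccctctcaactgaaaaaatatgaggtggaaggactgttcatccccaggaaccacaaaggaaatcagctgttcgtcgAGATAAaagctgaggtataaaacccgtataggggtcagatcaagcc
The Gpc4 window holds 1 ETS match, the Itga2b window 2, and the Cpa3 window 1 GATA match. Of 32851 such windows, 9.99% hold a GATA match and 39.2% an ETS match. The ETS matches are thus common and the GATA match less so, and all of them describe the letters only.

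The 12 higher genes with the smallest p, among those with no overlap between groups and 5 CPM or more on average, were Itgal, Igfbp4, Cnn2, Vim, Tcf7, Cpa3, Itgb3, Fgl2, Mpeg1, Spata13, Sla and Zyx. Their log2 fold changes ran from 1.16 to 2.49, their unadjusted p from 0.000191 to 0.000682 and their adjusted p from 0.488 to 0.505, so that none was called by edgeR. DESeq2 and voom called all 12. They take in adhesion and cytoskeletal genes as well as transcripts of lymphoid, myeloid and mast cells.

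Adhesion and actin genes made up the first group. Itgal, the αL chain of the leukocyte integrin LFA-1, measured 57.2, 40.5 and 60.3 CPM in HS3A8-low against 13.6, 20.2 and 16.7 CPM in the controls, 3.13-fold higher (log2 fold change 1.64, SE 0.24). Itgb3, the β3 partner of αIIb in the platelet fibrinogen receptor, measured 19.7, 12.9 and 15.1 CPM against 3.97, 5.5 and 4.56 CPM, 3.40-fold higher. Vim, the intermediate filament protein vimentin, measured 99.4, 84.7 and 131 CPM against 43.6, 37.9 and 29.9 CPM, 2.83-fold higher. In each of these the lowest HS3A8-low library was well clear of the highest control. Cnn2, an actin-binding calponin, averaged 77.4 ± 8.94 CPM against 30.7 ± 5.96 CPM (SD, n = 3). Zyx, the focal adhesion protein zyxin, averaged 136 ± 27.3 CPM against 59.9 ± 10.1 CPM.

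The remaining genes were of other kinds. Tcf7, a transcription factor of early T cells, measured 81.6, 65.7 and 30.8 CPM against 12.3, 12.7 and 12.1 CPM, 4.81-fold higher. Its control libraries were nearly equal while the HS3A8-low libraries varied, with replicate 3 the lowest. Cpa3 measured 17.6, 20.7 and 23.1 CPM against 8.41, 6.97 and 6.18 CPM, 2.85-fold higher, with no overlap and little spread. Igfbp4, a binding protein for insulin-like growth factors, averaged 153 ± 13.3 CPM against 68.6 ± 10.7 CPM (SD, n = 3). Mpeg1, the macrophage pore protein perforin-2, measured 7.75, 10.4 and 17.8 CPM against 1.89, 1.92 and 2.57 CPM, and Fgl2, a fibrinogen-like protein, averaged 12.7 ± 2.14 against 3.83 ± 0.532 CPM. Sla, an adaptor that dampens antigen receptor signalling, averaged 49.9 ± 16.9 CPM against 15.6 ± 3.37 CPM, and Spata13, a guanine nucleotide exchange factor, 9.38 ± 1.37 against 2.90 ± 0.244 CPM. Leaving out HS3A8-low replicate 3 kept the log2 fold change at 2.10 for Mpeg1 and 1.38 for Sla.

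After Gpc4 the lower genes were shallow. The other 11 of the 12 with the smallest p had log2 fold changes between -1.04 (Zfp661, a zinc finger gene) and -0.42 (Slc25a21, a mitochondrial oxodicarboxylate carrier), and their adjusted p in edgeR ran from 0.711 to 0.793. Kif18a, a mitotic kinesin, measured 34.7, 27.9 and 37.2 CPM against 64.0, 45.7 and 52.9 CPM (log2 fold change -0.70, SE 0.20). Hmmr, a spindle and hyaluronan-binding protein, measured 109, 96.5 and 108 CPM against 159, 132 and 133 CPM (log2 fold change -0.44, SE 0.15). Kpna2, an importin of nuclear transport, averaged 351 ± 43.6 CPM against 487 ± 61.3 CPM (SD, n = 3). Angptl4, an inhibitor of lipoprotein lipase, held 47.1 to 48.1 CPM in the HS3A8-low libraries but 57.5 to 92.3 CPM in the controls. The others were Gorasp1, Cyp1a1, Lmcd1, Top1mt and Cryz, and 32.1% of the exonic length of Gorasp1 overlaps another gene, so reads may be shared. DESeq2 called only Gpc4 of these 12 and voom called 6.

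**Figure D2:**
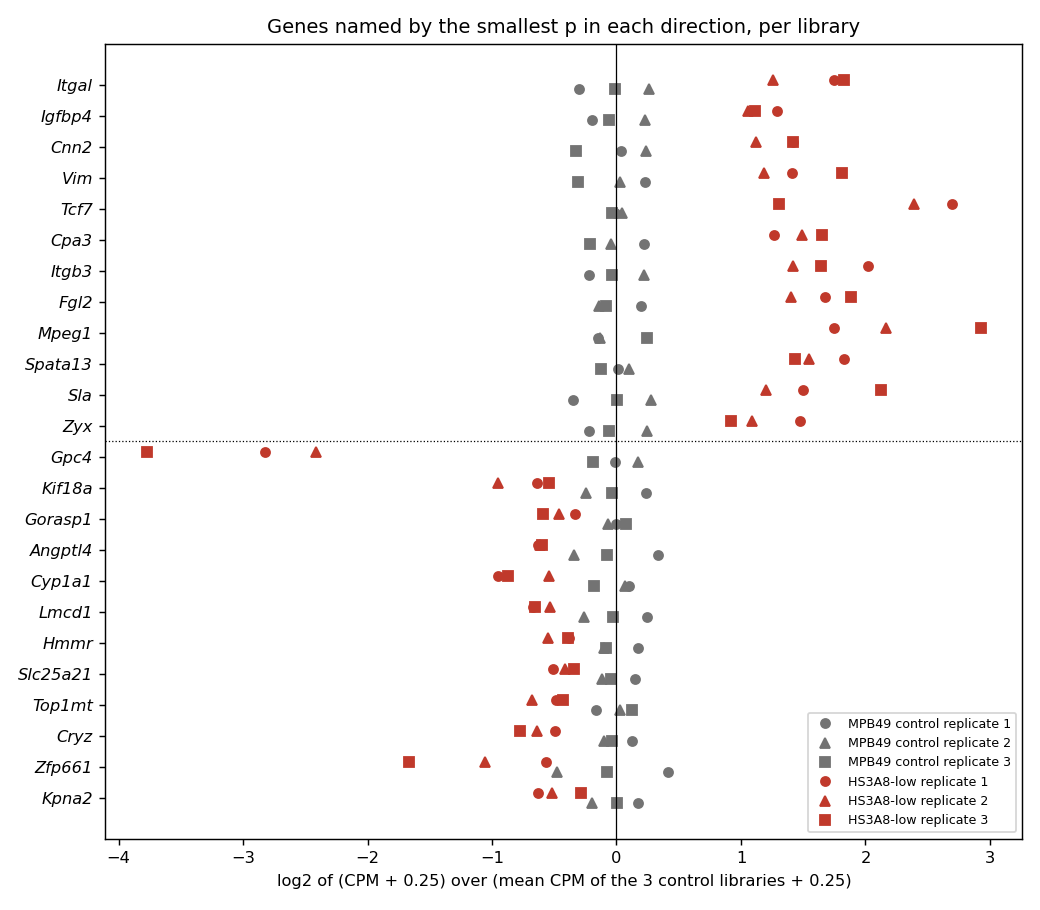
Log2 CPM of the 12 higher and 12 lower genes named by the smallest p, per library, relative to the mean of the 3 control libraries (0.25 CPM added to each value). Red symbols are HS3A8-low and grey symbols MPB49 control; Gpc4 lies furthest from its controls on the lower side, and the other 11 lower genes lie within about 1 log2 unit except for Zfp661.

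The megakaryocyte lists lay above the control, most of all in HS3A8-low replicate 1. In the list of 12 megakaryocyte transcription factors 11 were higher, 3 without overlap (25% against 7.91% of all genes) and 4 at an unadjusted p under 0.05, and the median log2 fold change was 0.70 against -0.0028 over all genes (0.39 without HS3A8-low replicate 1). None was called by edgeR, DESeq2 or voom. Fli1, an ETS factor, measured 63.1, 37.7 and 26.4 CPM against 17.3, 25 and 23.5 CPM (log2 fold change 0.95, SE 0.34, edgeR adjusted p = 0.793). Meis1, a homeobox factor, measured 65.2, 39.0 and 26.7 CPM against 18.8, 28.4 and 23.2 CPM, so that HS3A8-low replicate 3 fell within the controls. Nfe2, which controls platelet release, measured 314, 264 and 251 CPM against 187, 219 and 197 CPM. Gata2, shared by stem, mast and megakaryocyte cells, averaged 299.6 ± 104 CPM against 185 ± 19.4 CPM (SD, n = 3). Runx1 averaged 42.7 ± 11.3 CPM against 26.1 ± 11.9 CPM, with control replicate 1 the lowest library at 12.4 CPM. Zfpm1, the GATA1 cofactor FOG1, was the 1 member below the control, with a log2 fold change of -0.33.

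Platelet receptors and granule genes were also above the control on the median. Of 17 platelet surface receptors tested among 22 listed, 16 were higher and 4 did not overlap (23.5% against 7.91% of all genes), with a median log2 fold change of 0.55 that was 0.29 without HS3A8-low replicate 1. DESeq2 called 1 of the 17 and voom called 4, where these tools called 0.695% and 2.25% of all genes higher. Itga2b measured 126, 83.2 and 67.8 CPM against 74.5, 44.7 and 48.2 CPM, and control replicate 1 lay within the HS3A8-low range (log2 fold change 0.73, SE 0.30, edgeR adjusted p = 0.840, voom adjusted p = 0.0327). Cd9, a tetraspanin of platelets, measured 47.0, 34.4 and 34.0 CPM against 39.3, 21.9 and 17.9 CPM (voom adjusted p = 0.0366). F2r, the thrombin receptor PAR1, measured 207, 148 and 111 CPM against 73.9, 108 and 90.6 CPM without overlap. Gp5, a subunit of the von Willebrand factor receptor, averaged lower, with a log2 fold change of -0.18. Gp6, Itga2, Clec1b, P2ry12 and Mpig6b were not tested, each being at or below 1.04 CPM in every library.

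All 18 tested genes of the platelet granule, cytoskeletal and signalling list were higher, 5 of them without overlap (27.8% against 7.91% of all genes), with a median log2 fold change of 0.69 that was 0.33 without HS3A8-low replicate 1. DESeq2 called 1 of the 18 and voom called 4, against the same 0.695% and 2.25% of all genes. Pf4, the platelet chemokine, measured 84.0, 58.0 and 49.6 CPM against 91.3, 22.2 and 28.4 CPM, so that control replicate 1 was the highest of the 6 libraries. Its log2 fold change of 0.44 (SE 0.53) became 1.34 without that library. Plek, the platelet protein pleckstrin, measured 80.1, 48.2 and 38.6 CPM against 13.9, 26.7 and 24.9 CPM (log2 fold change 1.35, SE 0.35). Lat, a signalling adaptor of platelets and T cells, measured 23.4, 24.1 and 20.3 CPM against 16.5, 8.63 and 9.49 CPM. Serpine2, a serpin of platelet granules, measured 22.5, 11.2 and 13.5 CPM against 6.05, 5.95 and 6.10 CPM, and DESeq2 called it (adjusted p = 0.0300) while edgeR and voom did not. F13a1, the factor XIII A chain of platelets and monocytes, was at 290 CPM in HS3A8-low replicate 3 and between 0.639 and 5.52 CPM in the other 5 libraries, and its log2 fold change of 6.31 was 1.88 without that replicate. Without HS3A8-low replicate 3 and control replicate 1 the medians of the 3 megakaryocyte and platelet lists were 0.66, 1.03 and 1.14, whereas without HS3A8-low replicate 1 they were the lower values given for each list.

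**Figure D3:**
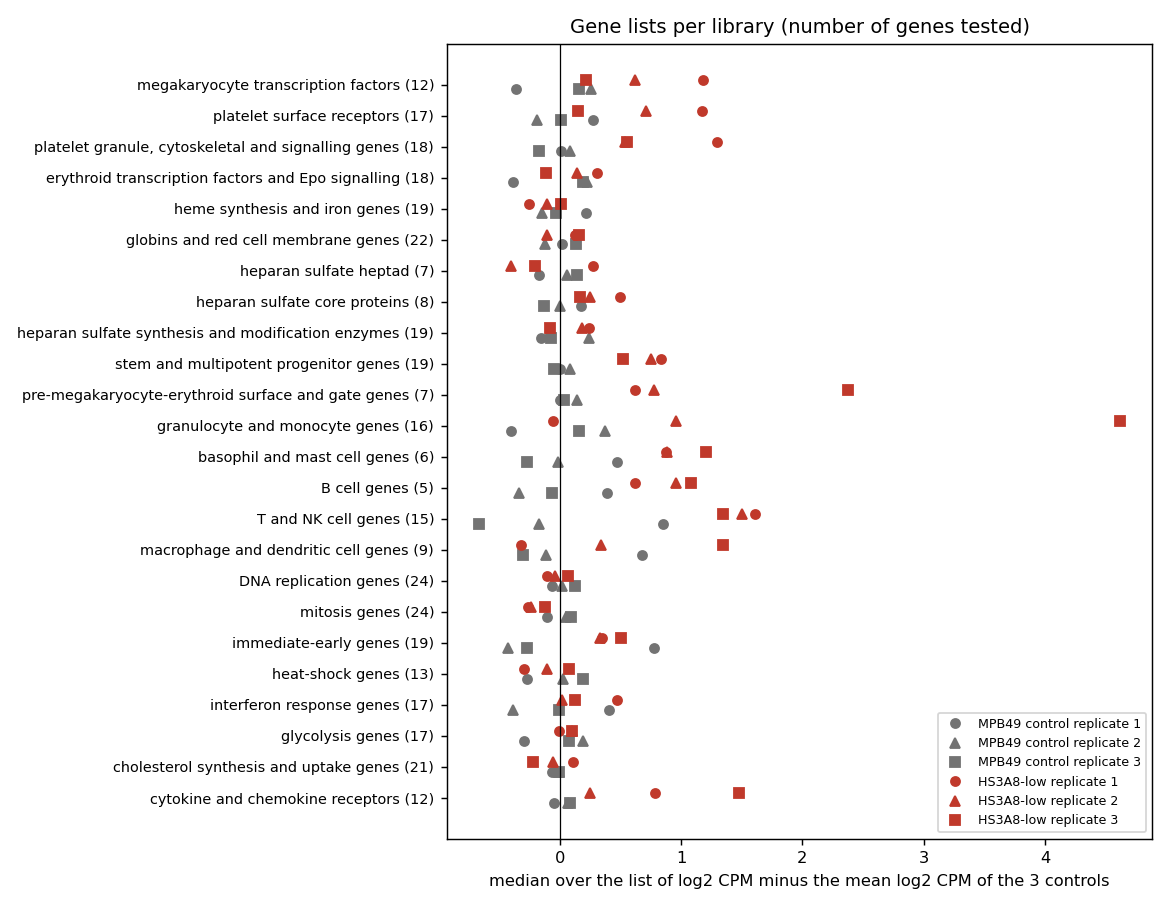
Median over each of 24 gene lists of log2 CPM minus the mean log2 CPM of the 3 controls, per library, with the number of genes tested in parentheses. Red symbols are HS3A8-low and grey symbols MPB49 control; several lists have all 3 HS3A8-low libraries above all 3 controls, among them the T and NK cell, stem, platelet granule, gate, basophil and mast cell, B cell and cytokine receptor lists, and the granulocyte and monocyte list is far above only in HS3A8-low replicate 3.

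Erythroid genes differed little between the HS3A8-low cells and the total. Of 18 erythroid transcription factors and Epo signalling genes, 12 were higher, and the median log2 fold change was 0.06. Without overlap, 1 lay above (5.56% against 7.91% of all genes) and 1 below (5.56% against 4.92%). Gata1 measured 434, 458 and 370 CPM against 372, 462 and 470 CPM (log2 fold change -0.05, SE 0.17). Klf1 measured 630, 804 and 796 CPM against 541, 856 and 932 CPM (log2 fold change -0.06, SE 0.23). For both genes the sign turned with the library left out. Epor, the erythropoietin receptor, measured 205, 230 and 244 CPM against 290, 250 and 275 CPM, below the controls without overlap (log2 fold change -0.26, SE 0.15, edgeR adjusted p = 0.840). Bcl2l1, an Epo target that encodes the survival protein BCL-XL, was the 1 gene above without overlap, with a log2 fold change of 0.52.

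Heme and iron genes leaned slightly below the control, with 15 of 19 lower and a median log2 fold change of -0.14. Of the 15, 2 did not overlap (10.5% of the list against 4.92% of all genes). Tfrc, the transferrin receptor, measured 390, 403 and 450 CPM against 549, 481 and 588 CPM (log2 fold change -0.38, SE 0.15, edgeR adjusted p = 0.840). Slc40a1, the iron exporter ferroportin, was the other gene without overlap (log2 fold change -0.19). Cpox, an enzyme of heme synthesis, averaged 505 ± 22.6 CPM against 525 ± 113 CPM (SD, n = 3), within the spread of the controls. Alas2, the erythroid enzyme that starts heme synthesis, was above without overlap at low levels, 3.17 to 7.52 CPM against 1.21 to 3.12 CPM. It was the 1 such gene of the list (5.26% against 7.91% of all genes).

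Among 22 globin and red cell membrane genes, 11 were higher and 11 lower, with a median log2 fold change of 0.03. Without overlap, 2 lay above (9.09% against 7.91% of all genes) and 2 below (9.09% against 4.92%). Car1, the carbonic anhydrase of early erythroid cells, averaged 4225 ± 247 CPM against 5178 ± 128 CPM without overlap (log2 fold change -0.29, SE 0.13, edgeR adjusted p = 0.840). Car2, a further carbonic anhydrase, was also below without overlap, with a log2 fold change of -0.19. Ermap, a red cell adhesion protein, averaged 749 ± 38.6 CPM against 809 ± 172 CPM. The globin genes Hba-a1 and Hba-a2 were above without overlap, with log2 fold changes of 0.53 and 0.83, and for both HS3A8-low replicate 3 was the highest library. Without it the values were 0.26 and 0.28. The globin genes are near-identical copies, and how reads were divided between them is uncertain.

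Of the 7 HS genes that the study grouped as a heptad from single-cell data, Gpc4 stood alone in size. The median log2 fold change of the heptad was 0.03 (-0.18 to 0.11 when any 1 library was left out), with 4 genes higher and 3 lower. Of the 7 genes 1, Gpc4, lay below without overlap (14.3% against 4.92% of all genes). Agrn, the HS proteoglycan agrin, measured 14.5, 10.3 and 7.01 CPM against 29.9, 14.3 and 20.1 CPM, with an overlap of 1 library in each group (log2 fold change -1.01, SE 0.37, edgeR adjusted p = 0.798). Ext1, which polymerizes HS, had a log2 fold change of -0.19. Extl3, which starts the chain, had one of 0.10, and Ndst2, an N-sulfotransferase, one of 0.03. Hs6st1, a 6-O-sulfotransferase, had a log2 fold change of 0.08, and Tgfbr3, the co-receptor betaglycan, one of 0.32. For these 5 genes the groups overlapped.

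Other HS genes were sparse. Of 13 further core protein genes 8 were tested, 5 were higher, 2 without overlap (25% against 7.91% of all genes), and the median log2 fold change of 0.67 was 0.14 without HS3A8-low replicate 1. Gpc1, glypican 1, was at 26.8 CPM in HS3A8-low replicate 3 and between 0.441 and 2.11 CPM elsewhere, and its log2 fold change of 3.14 was 0.49 without that replicate. Gpc2, glypican 2, measured 4.23, 9.03 and 8.36 CPM against 3.68, 2.49 and 3.97 CPM, and 55.6% of its exonic length overlaps another gene. Srgn and Cd44, a granule proteoglycan and a hyaluronan receptor, both had log2 fold changes of -0.01. Of 31 HS synthesis and modification enzymes 19 were tested, 12 were higher, 3 without overlap (15.8% against 7.91%), with a median log2 fold change of 0.15 that ran from -0.02 to 0.21 when any 1 library was left out. Ndst1, an N-sulfotransferase, measured 28.6, 14.9 and 12.5 CPM against 6.14, 10.6 and 5.74 CPM (log2 fold change 1.31, SE 0.41, edgeR adjusted p = 0.722). Papss1, which makes the sulfate donor, and Pxylp1, a xylose phosphatase of the linker, were the others above without overlap, with log2 fold changes of 0.59 and 1.10. Hpse, which cleaves HS, and Sulf2, a surface sulfatase, were highest in HS3A8-low replicate 3, at 19.5 and 6.67 CPM, and their log2 fold changes of 2.85 and 2.25 were 0.47 and 1.21 without it.

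Stem and multipotent progenitor genes were higher in all 3 HS3A8-low libraries. Of 19 tested, 17 were higher. Without overlap, 8 lay above (42.1% against 7.91% of all genes) and 1 below (5.26% against 4.92%). The median log2 fold change of 0.68 stayed at 0.76 when both libraries that stood apart were left out. Mycn, a MYC family transcription factor, measured 38.6, 33.3 and 21.9 CPM against 11, 14.6 and 15.4 CPM (log2 fold change 1.19, SE 0.27), and DESeq2 and voom called it (adjusted p = 0.0333 and 0.0196). Cd27, a TNF receptor of multipotent and lymphoid progenitors, measured 21, 30.7 and 23.9 CPM against 14.5, 15.7 and 14.9 CPM. Tek, the angiopoietin receptor, Slamf1, which encodes CD150, and Hlf, a stem cell transcription factor, were above without overlap, with log2 fold changes of 0.93, 0.89 and 0.91. Cd34 averaged 54.7 ± 23.7 CPM against 32.7 ± 15 CPM (SD, n = 3) with overlapping groups. Mllt3, a chromatin reader of stem cells, was below without overlap at a log2 fold change of -0.24.

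The gate and surface genes divided. Kit had a log2 fold change of -0.09 (SE 0.27) and Eng, which encodes the surface protein endoglin, one of 0.07. Ptprc, the leukocyte common antigen CD45, measured 82.1, 91.4 and 79.2 CPM against 54.3, 50.6 and 54.9 CPM (log2 fold change 0.66, SE 0.14), with tight groups far from each other. Fcgr3, which encodes FcγRIII and whose protein the gate keeps low, was at 44.1 CPM in HS3A8-low replicate 3 and between 0.147 and 2.26 CPM in the other 5 libraries, and its log2 fold change of 4.04 was 0.90 without that replicate.

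Transcripts of T and NK cells gave the highest share of non-overlapping genes among the lists of other cells. All 15 genes tested were higher and 9 did not overlap (60% against 7.91% of all genes), with a median log2 fold change of 1.39. It was 1.38 without HS3A8-low replicate 3, 2.26 without control replicate 1 and 1.01 without control replicate 3. Only 7 of the 15 genes reached a mean of 5 CPM, and the count filter can keep a gene for its HS3A8-low counts alone. DESeq2 called 4 and voom 10, where these tools called 0.695% and 2.25% of all genes higher. The summed level of the list was 240 to 315 CPM in HS3A8-low and 65.7 to 154 CPM in the controls, control replicate 1 being the highest control. Il2rb, the IL-2 and IL-15 receptor β chain, measured 18.2, 18.6 and 12.2 CPM against 4.35, 1.28 and 2.43 CPM (log2 fold change 2.62, SE 0.47). Nkg7, a granule protein of cytotoxic cells, measured 107, 97.5 and 115 CPM against 65.4, 41.2 and 34.5 CPM. Trbc1, a T cell receptor constant gene, measured 24.2, 24.6 and 21.9 CPM against 24.7, 6.58 and 3.82 CPM, so that control replicate 1 matched the HS3A8-low libraries. The CD3 genes, which define T cells, were low: Cd3e did not exceed 1.69 CPM, Cd3g 1.82 CPM and Cd3d 4.22 CPM. More cells of a type and more RNA per cell cannot be told apart in these bulk libraries.

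Granulocyte and monocyte genes were a matter of 1 library. The 16 genes tested had a median log2 fold change of 3.02 with all 3 replicates and 0.37 without HS3A8-low replicate 3. The list summed to 5356 CPM in that library and to 135 to 343 CPM in the other 5. Mpo, the neutrophil enzyme myeloperoxidase, measured 51.1, 134 and 1616 CPM against 20.6, 116 and 85.2 CPM, and its log2 fold change of 3.02 became 0.33 without that library. Irf8, a monocyte and dendritic cell transcription factor, measured 45.6, 42.5 and 204 CPM against 18.0, 21.6 and 20.3 CPM, so that it was above the controls in all 3 libraries. Spi1, which encodes PU.1, measured 20.1, 26.4 and 71.9 CPM against 10.9, 14.8 and 12.6 CPM, again without overlap. Without HS3A8-low replicate 3 the log2 fold change of Irf8 was 1.15 instead of 2.28, and that of Spi1 0.88 instead of 1.63.

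The lists of mast, B and macrophage cells held few tested genes. In the basophil and mast cell list 6 of 13 genes were tested, 5 were higher and 2, Cpa3 and Lmo4, did not overlap (33.3% against 7.91% of all genes), and the median log2 fold change of 1.01 was 0.55 without HS3A8-low replicate 3. Lmo4, an LIM-domain cofactor, measured 28.2, 26.9 and 20.1 CPM against 12.9, 12.9 and 9.12 CPM, and DESeq2 and voom called it. The mast cell tryptase genes Tpsb2 and Tpsab1 had 0 counts in all 6 libraries, and Cma1 did not exceed 0.507 CPM. Prss34, Mcpt8 and Fcer1a, also untested genes of the list, had 889, 407 and 59 counts in HS3A8-low replicate 3. In control replicate 1 they had 97, 30 and 7 counts, and in any other library at most 8. Of 5 B cell genes tested 4 were higher and 2 did not overlap (40% against 7.91%), Ighm and Cd79b, while Pax5 and Ms4a1 had 0 counts in all 6 libraries. Cd74, the invariant chain of MHC class II, measured 106, 123 and 140 CPM against 102, 48.1 and 34.0 CPM. Of the 9 macrophage and dendritic cell genes tested 8 were higher, 3 without overlap (33.3% against 7.91%), and the median of 0.60 was -0.01 without HS3A8-low replicate 3. The part of any other cell type in the megakaryocyte and stem lists was not tested.

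**Figure D4:**
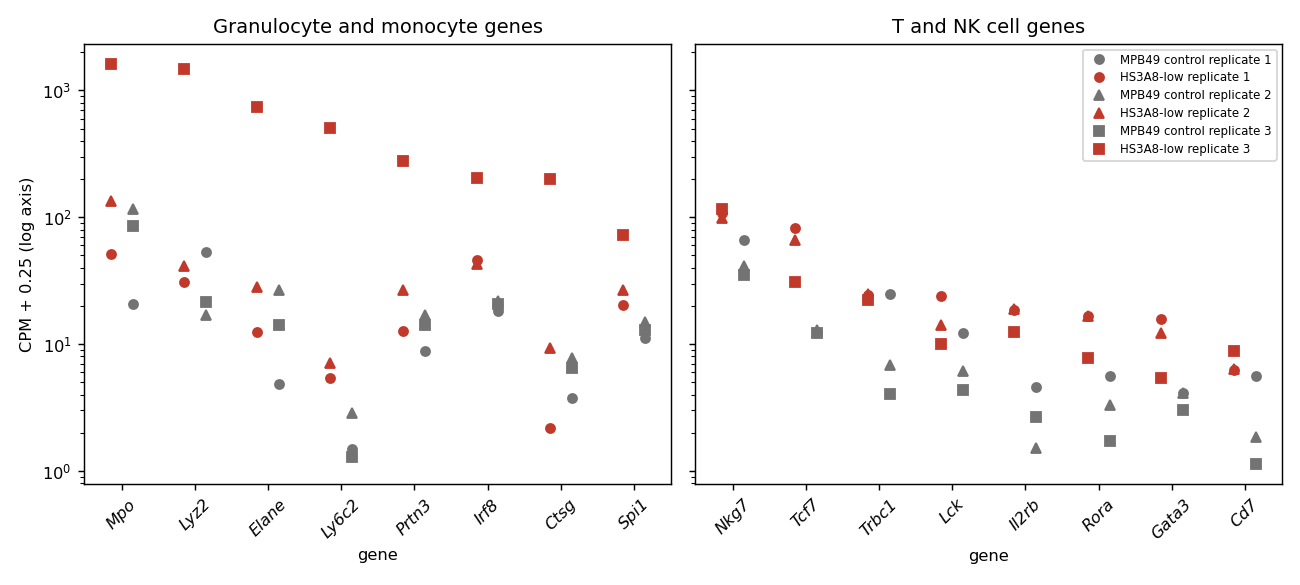
CPM of 8 granulocyte and monocyte genes and 8 T and NK cell genes in each library (0.25 CPM added, log axis). Red symbols are HS3A8-low and grey symbols MPB49 control; HS3A8-low replicate 3 (red square) is far above the rest in the left panel only, and control replicate 1 (grey circle) is the highest control for Nkg7, Trbc1, Lck, Il2rb, Rora and Cd7.

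Mitosis genes leaned slightly below the control, while DNA replication genes did not. Of 24 mitosis genes 23 were lower and 4 did not overlap (16.7% against 4.92% of all genes), with a median log2 fold change of -0.18. The median ran from -0.31 to -0.14 when any 1 library was left out, and was -0.37 without HS3A8-low replicate 3 and control replicate 1. DESeq2 called 0 of the 24 and voom called 3 lower, from 20 genes that voom called lower in all. Ccnb1, cyclin B1, averaged 329.5 ± 36.1 CPM against 411 ± 16.5 CPM (SD, n = 3; log2 fold change -0.32, SE 0.15, edgeR adjusted p = 0.840). Aurka, a spindle kinase, had a log2 fold change of -0.32 and Cdc20, an activator of the anaphase complex, one of -0.25, both without overlap, and Hmmr was the fourth. The 24 DNA replication genes divided evenly, 12 higher and 12 lower, with a median of -0.01.

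Immediate-early genes varied with control replicate 1. Of 19 immediate-early genes 15 were higher with a median log2 fold change of 0.37, which was 0.79 without control replicate 1. DESeq2 called 0 of them and voom 10, all higher, where voom called 2.25% of all genes higher. Dusp1, Junb, Zfp36, Nr4a1 and Btg2 were among the 26 genes that edgeR called without HS3A8-low replicate 3 and control replicate 1. Dusp1, a MAP kinase phosphatase, measured 402, 387 and 424 CPM against 484, 211 and 221 CPM, so that control replicate 1 was the highest library. Zfp36, which destabilizes cytokine transcripts, was the 1 gene of the list above without overlap (5.26% against 7.91% of all genes), with a log2 fold change of 0.88. Glycolysis genes had a median of 0.02. Without overlap, 4 of 17 lay above (23.5% against 7.91% of all genes) and 2 below (11.8% against 4.92%). Pkm, pyruvate kinase, was among those above (135, 161 and 331 CPM against 44.1, 93.5 and 67.3 CPM). Interferon response genes had a median of 0.11, with 4 of 17 above without overlap (23.5% against 7.91%). The median was -0.06 for cholesterol genes, -0.10 for heat-shock genes and 0.81 for cytokine and chemokine receptors. The last was 0.60 without HS3A8-low replicate 3 and 1.23 without control replicate 1. The medians of the erythroid factor, globin, DNA replication, glycolysis, interferon, cholesterol and heat-shock lists turned sign with the library left out. In the receptor list, Ccr2, a monocyte chemokine receptor, measured 20.6, 19.6 and 72.0 CPM against 13.5, 3.39 and 6.69 CPM, and its log2 fold change of 2.26 was 1.38 without HS3A8-low replicate 3. Over all 24 lists, 364 of 430 listed genes were tested, 68 were higher and 4 lower at an unadjusted p under 0.05, and none was called by edgeR.

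Several genes passed the limit of 2-fold that a 50% fraction would set. With a mean of at least 5 CPM over both groups, 257 genes had a fitted log2 fold change over 1, and in 19 of them the lowest HS3A8-low library was more than 2-fold above the highest control. Because the mean takes in the higher group, 14 of the 19 had a control mean under 5 CPM, and the count was 28 to 58 when any 1 library was left out. Tcf7, Il2rb, Itgb3, Fgl2, Mpeg1, Spata13, Cpa3 and Itgal were among these 19. Tcf7 had a ratio of means of 4.81 and a smallest gap of 2.42-fold between any HS3A8-low library and any control. Il2rb had a ratio of 6.09 and a smallest gap of 2.82-fold. C3, complement component 3, was also among them, at 81.2 CPM in HS3A8-low replicate 3, 1.35 and 1.55 CPM in the other HS3A8-low libraries and at most 0.32 CPM in the controls. The reason that these levels passed the limit was not tested.

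The HS3A8-high libraries, the complementary 50% of MEPs, give the values on the other side of the same controls. In a scaling over all 9 libraries, the control mean lay between the HS3A8-low and HS3A8-high means for 11 of the 12 higher genes, Mpeg1 being the exception. These genes were named for HS3A8-low lying above the same controls, so only the HS3A8-high side was open. For 7 of the 12 every HS3A8-high library lay below every control. Among the 12 lower genes, the control mean lay between the other means for 6, Gpc4 included. Gpc4 measured 38.7, 41.7 and 41.6 CPM in HS3A8-high, above all 3 controls. Tcf7 measured 1.07, 0.301 and 0.728 CPM in HS3A8-high, and Itgb3 0.314, 0 and 2.85 CPM. Itga2b averaged 5.79 ± 1.94 CPM in HS3A8-high and Pf4 3.29 ± 1.43 CPM (SD, n = 3), far under both other groups. Klf1 averaged 946 ± 86.9 CPM in HS3A8-high against 741 ± 98.0 CPM in HS3A8-low, with the controls at 775 ± 207 CPM.

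Total MEPs would be expected near the midpoint of both fractions if they held like amounts of RNA. Over 9348 genes of at least 5 CPM, the midpoint of the HS3A8-low and HS3A8-high means was 1.01 times the control mean at the median (quartiles 0.889 and 1.12), and it passed 1.3 times for 6.76% of genes. For the 12 higher genes, which were named for their height over the same controls, the midpoint ran from 1.31 to 3.52 times the control, with a median of 1.79. For the 12 lower genes, named in the same way, the midpoint ran from 0.578 to 0.919 times the control, with a median of 0.80. For Tcf7 it was 2.43 times, for Itga2b 0.878, for Meis1 1.02, for Gata1 1.06 and for Gpc4 0.778.

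**Figure D5:**
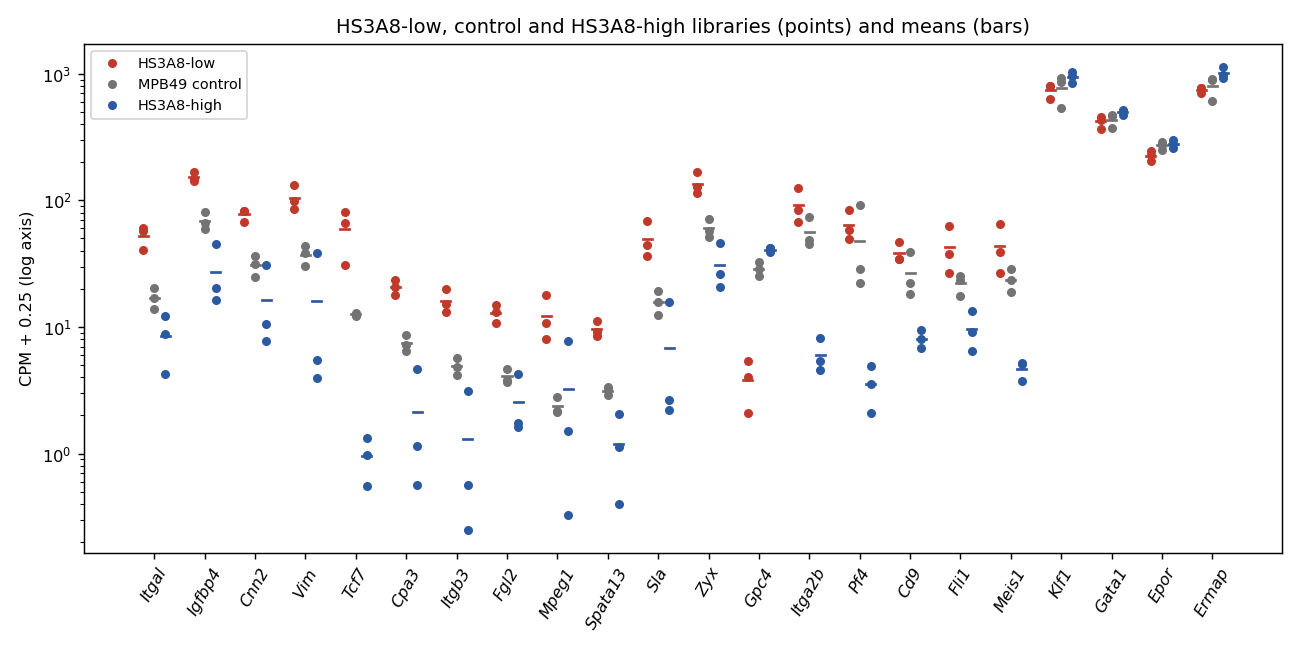
CPM (0.25 added, log axis) of each HS3A8-low (red), MPB49 control (grey) and HS3A8-high (blue) library, with bars for the group means. The 12 higher genes have their controls between or near the other groups, and Gpc4 runs the other way with HS3A8-low near 3.60 CPM. Klf1, Gata1, Epor and Ermap show small steps on this axis, with every HS3A8-low library below every HS3A8-high library.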

How the data were processed

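RNA from FACS-purified mouse MEPs was sequenced by the authors as low-input bulk RNA-seq on an Illumina HiSeq. Per the submitters' processing notes and the study's methods, reads were aligned to mm10 with STAR 2.5 and counted with HTSeq 0.6.1. The deposited values are raw counts of reads per Ensembl gene, neither normalized nor filtered, in 1 table of 9 libraries. Strandedness was not given in the sources used here, so reads of overlapping genes cannot be told apart.

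The 3 HS3A8-low and 3 MPB49 control libraries entered the fit. Genes were kept by edgeR's filterByExpr, scaled by TMM and tested two-sided with the quasi-likelihood F test (edgeR 4.0.16, R 4.3.3) and Benjamini-Hochberg adjustment over all genes tested. Standard errors are the log2 fold change over the square root of F. CPM values are TMM-scaled, and log2 CPM used a prior count of 2. DESeq2 1.42.0, on the unfiltered counts with its own independent filtering, and voom with sample quality weights (limma 3.58.1) were alternatives. The method was tested on simulated data. Named genes were the 12 per direction with the smallest p, no overlap between groups and a mean of at least 5 CPM, since none was called; in the lists, the called genes, those without overlap and the most abundant were named, together with a fixed set of lineage genes, and a few more genes were chosen after their values were seen. The contrast, gene lists and named genes were chosen with earlier results of these data known. Symbols and coordinates come from GENCODE M21 (GRCm38, which is mm10), and 34490 of 35275 identifiers matched. Within each group the libraries were further apart than counting noise (chi-square per degree of freedom of 9.61 to 196), so each library counts as 1 replicate. Samples with the same replicate number did not deviate together (r of -0.36, 0.02 and -0.18 across genes). Samples with different numbers had r of -0.29 to 0.35. The numbers were therefore not used as pairs, but with 3 libraries a group these values cannot exclude shared mice. The floor covers counting error only, and reads carry no molecular identifiers.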

Additional observations from a re-analysis of the deposited data

How the results depend on the processing

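The count of genes called by edgeR was 0 with DESeq2 size factors, upper-quartile factors, all 9 libraries fitted together, genes kept at a mean count of 10 or at any count, a threshold of 0.1, a fold limit of 1 on the log2 scale and, added after the data were seen, with trends of GC content and transcript length removed (it was also 0 when any 1 library was left out, with 395 to 1181 genes at an unadjusted p under 0.05). With the replicate block it was 0, with 403 genes at an unadjusted p under 0.05, although the sources used here do not say that a replicate number marks 1 mouse. It was 95 with DESeq2, 287 with voom and quality weights, and 26 without HS3A8-low replicate 3 and MPB49 control replicate 1. The cause of these differences between tools was not tested. The number of genes past 2-fold in every library (19) was 28 to 58 when any 1 library was left out and 71 without both libraries, in part because fewer libraries have to pass. Log2 fold changes near 0 turned sign: with any 1 library or both of those libraries left out Cpox ran from -0.24 to 0.072, Klf1 from -0.32 to 0.089 and Gata1 from -0.15 to 0.051, and with trends removed Cpox was 0.013 and Gata1 0.028. Depth limits genes under about 1 CPM, where a floor of 3 counts is 0.189 to 0.255 CPM.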
